A study of Mus musculus with 6 samples.

Results

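Motile cilium genes were followed in 2 populations of sorted mouse lung cells, as a group of 35 genes chosen for their place in the beating cilium. A gene was included if the array carried a probe set assigned to it alone, which held for 35 of the 35, among 18193 genes with such a probe set. Where a gene had several, the brightest by mean log2 signal across the 6 arrays stood for it. The E18 samples were cells positive for Muc1 and Pdpn, sorted from mouse lungs at embryonic day 18, and the series calls them bipotent progenitors. The adult samples were cells positive for Lyz2 and EpCAM from adult lungs, labelled as alveolar type II cells. Each group had 3 samples labelled as biological replicates, with 1 Affymetrix 3' expression array each. Strain, sex, exact adult age and any pooling of animals were not given in the sources used here, age and sorted population differ together, and the p-values measure the spread between these samples.

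Motile cilia are the beating hairs that clear mucus from the airways, and in the lung they stand on the multiciliated cells of the airway lining. Their core, the axoneme, is a ring of microtubule doublets around a central pair. Dynein arms on the doublets slide them past each other, radial spokes and the central apparatus time that movement, and the transcription factor Foxj1, with factors of the RFX family, switches on the genes for these parts. Alveolar type I and type II cells do not carry motile cilia.

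RFX factors are known to bind a DNA element called the X-box, 1 arm of which reads GTTGCC (or GGCAAC on the other strand). Because the members moved together across the arrays, the bases upstream of their RefSeq starts (build GRCm38.p6) were searched for it on both strands. Windows were matched for 26 of the 35 members by gene ID. Not matched were Foxj1, Armc4, Ttc25, Rsph1, Rsph4a, Cfap53, Tppp3, Nme5 and Lrrc46. In the 250 bases before a start, GTTGCC was found in 11 of the 26 members, or 42.3%, and in 11.8% of 27025 mouse genes searched the same way. A fuller X-box, made of GTTNCC, 2 further bases and GGNAAC, reads the same on both strands and can overlap GTTGCC. It was found in 1 of the 26, Pifo, and in 0.444% of all genes. The forkhead motif GTAAACA was found in 1 of the 26, Cfap43, and in 3.54% of all genes. A gene with several annotated starts counted if any of its windows held the motif. The stretches below are for some of the members described in the results. In each, 1 match is in capitals, and the strand of the gene gives the direction of reading. The GTTGCC matches of Dnah7a, Ropn1l, Spag6, Tekt1 and Tekt2 and the forkhead match of Cfap43 are not shown. The Spag16 stretch holds a second GTTGCC, left in lower case.
Dynlrb2, chr8:116504934-116504999, plus strand: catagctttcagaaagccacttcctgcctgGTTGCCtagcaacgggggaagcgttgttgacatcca
Drc1, chr5:30281352-30281392, plus strand: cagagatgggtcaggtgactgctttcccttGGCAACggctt
Enkur, chr2:21205366-21205429, minus strand: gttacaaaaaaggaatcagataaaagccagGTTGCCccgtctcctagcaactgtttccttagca
Mns1, chr9:72438427-72438492, plus strand: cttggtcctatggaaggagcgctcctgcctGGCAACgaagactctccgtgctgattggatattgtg
Spag16, chr1:69826829-69826894, plus strand: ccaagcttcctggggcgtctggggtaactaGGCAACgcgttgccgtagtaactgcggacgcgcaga
Pifo, chr3:106001498-106001547, minus strand: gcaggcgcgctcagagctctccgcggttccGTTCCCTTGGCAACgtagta
A match shows only that these letters are present in the window.

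Signals are given as log2 of the deposited MAS5 signal, so that 1 unit is a doubling, and differences are adult minus E18 unless stated. The 40th percentile of probe set signals on each array served as its detection floor, between 5.40 and 6.10 on the log2 scale. The third replicate of each group carried higher signals for the poly-A spike-in RNAs added before labelling, with medians of 13.89 and 14.34 against 6.42 to 9.63 on the other arrays, so values are also given within replicates 1 and 2 and within replicate 3. Both populations expressed Sftpc, the type II cell surfactant gene, at 14.04 ± 0.14 and 14.56 ± 0.10 (mean ± SD, n = 3, E18 and adult). Lyz2, named in the adult sort, was lower in the adult arrays by -2.86 (adjusted p = 0.00303). Pdpn, named in the E18 sort, was lower in the adult arrays by -2.27 (adjusted p = 0.00924). Epcam, also named in the adult sort, stood at 7.85, 8.50 and 10.68 in adult replicates 1, 2 and 3 and at 9.26 to 11.31 in the E18 arrays, and did not pass (adjusted p = 0.359). With limma, 798 of 13335 genes tested passed an adjusted p of 0.05, and the median difference over all genes was -0.17, or -0.05 if quantile normalized and -0.02 if every array was centred on its median. Leaving out 1 array moved the count of genes passing to 69, 66 and 505 without E18 replicates 1, 2 and 3 and to 572, 226 and 2770 without adult replicates 1, 2 and 3.

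The ciliary genes were detected at low to moderate signals in the E18 arrays, were mostly lower in adult replicates 1 and 2, and were far higher in adult replicate 3. The median signal of the 34 members tested was 7.31, 7.26 and 7.07 in E18 replicates 1, 2 and 3. It was 6.36 and 6.72 in adult replicates 1 and 2 and 10.28 in adult replicate 3. In each array's own ranking of genes, the members' median lay at percentiles 42.4, 41.9 and 41.1 in the E18 arrays, at 37.3 and 44.0 in adult replicates 1 and 2, and at 79.0 in adult replicate 3. Adult replicates 1 and 2 lay below the E18 arrays by median signal but on either side of them by rank, and adult replicate 3 stood above the other 5 arrays by both.

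**Figure D1:**
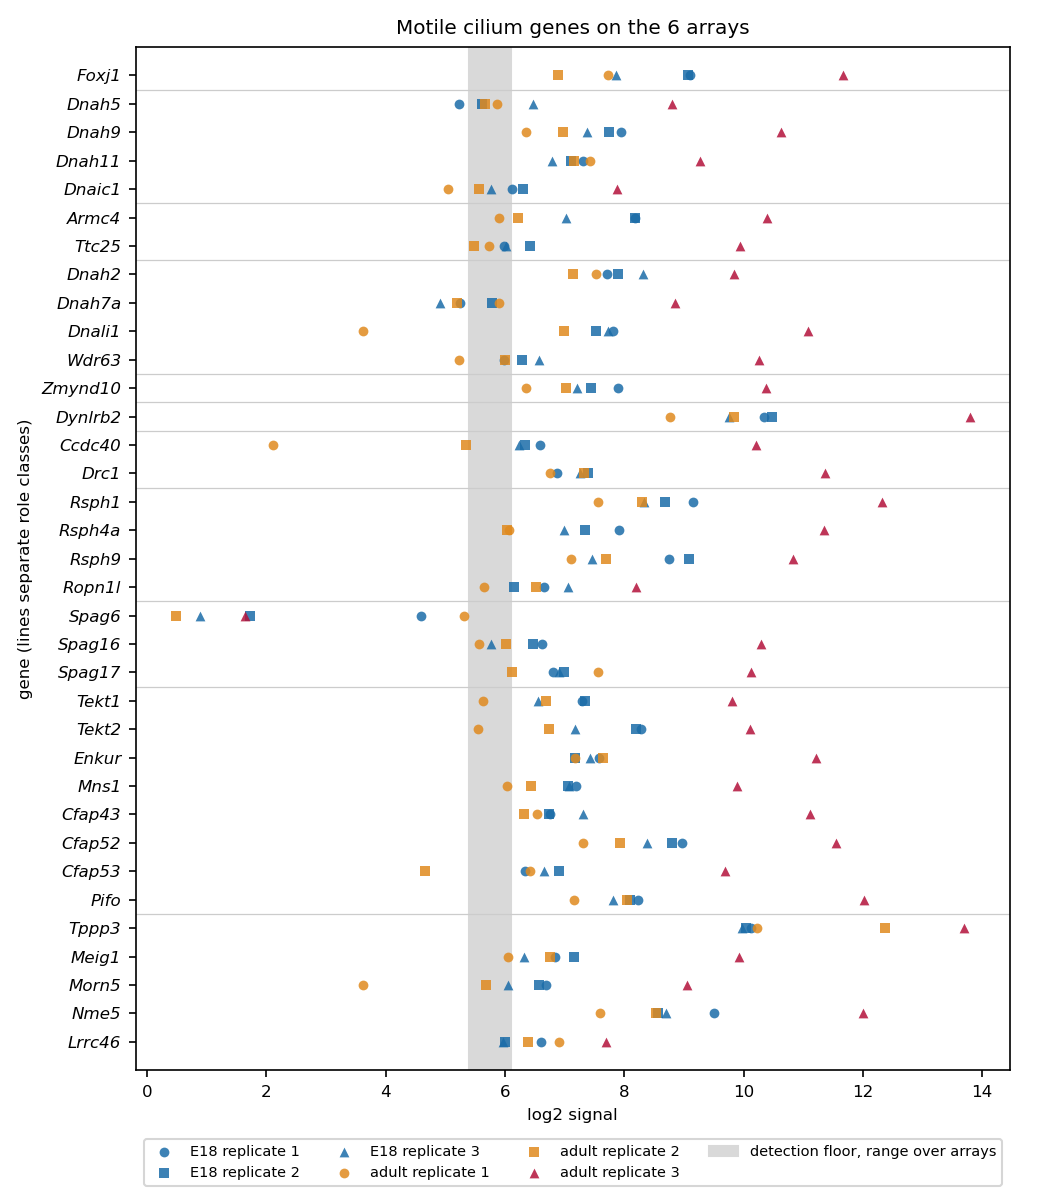
Log2 signal (x axis) of each of the 35 motile cilium genes (y axis, lines separating role classes) on the 6 arrays, with 1 point per array and the range of the detection floor in grey. Adult replicate 3 is the rightmost point for 34 of the 35 genes, and Spag6 lies under the floor on all 6 arrays.

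Of the 35 members, 20 were at or above the floor on all 6 arrays, 7 on 5, 6 on 4, 1 on 3 and 1 on none. The gene under the floor throughout was Spag6, which was not tested. A gene had to reach the floor on at least 3 arrays to be tested. Dnah7a reached it on 3, with adult replicate 3 among them, so it was tested only because that array counted. It is kept in the counts that follow. The other members tested reached the floor on at least 3 arrays besides adult replicate 3. In E18 replicates 1, 2 and 3 the floor was reached by 32, 33 and 28 members, in adult replicates 1 and 2 by 24 and 31, and in adult replicate 3 by 34. Adult replicate 3 was the highest of the 6 arrays for 34 of the 34 members tested, where 24.5% of all genes tested had it highest. It exceeded the mean of adult replicates 1 and 2 by at least 2 log2 units for 32 of the 34, against 10.0% of all genes. These counts describe 1 array against 2, for which there is no test.

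No member passed the test between the adult and E18 groups. Of the 34 tested, 0 were higher and 0 lower at an adjusted p under 0.05 with limma, where 1.41% of all genes were called higher and 4.57% lower (5.98% in all). At an unadjusted p under 0.05 there was 1 member, Tppp3, against 21.6% of all genes. The median difference was 0.43, with 29 members above 0 and 5 below, and the adjusted p-values ran from 0.179 to 0.973. The spread among the adult arrays was wide for these genes, with a median SD of 2.31 across members, against 0.62 for all genes tested, while in the E18 arrays it was 0.33 against 0.29. Standard errors of the differences ran from 0.49 to 1.76.

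Which arrays entered the comparison set its direction. In replicates 1 and 2 alone, 6 of the 34 members were lower in the adult arrays and 0 higher, where 16.5% of all genes were called lower and 6.01% higher, so the members' share was near that of all genes. The median difference there was -0.89, against -0.32 over all genes, and in replicate 3, with 1 array against 1 and no test, it was 3.37, against 0.01. Without adult replicate 3, only Armc4 passed, lower by -1.73 (adjusted p = 0.0382), where 15.5% of all genes were called lower and 5.26% higher, and the median was -0.78. Without adult replicate 1, Tppp3 passed, higher by 2.99 (adjusted p = 0.0236), where 4.29% of all genes were called, 0.907% higher and 3.38% lower. Leaving out adult replicate 2 or any E18 replicate gave 0 calls among the members, with 1.69% of all genes called without adult replicate 2 and 0.517%, 0.495% and 3.79% without E18 replicates 1, 2 and 3.

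**Figure D2:**
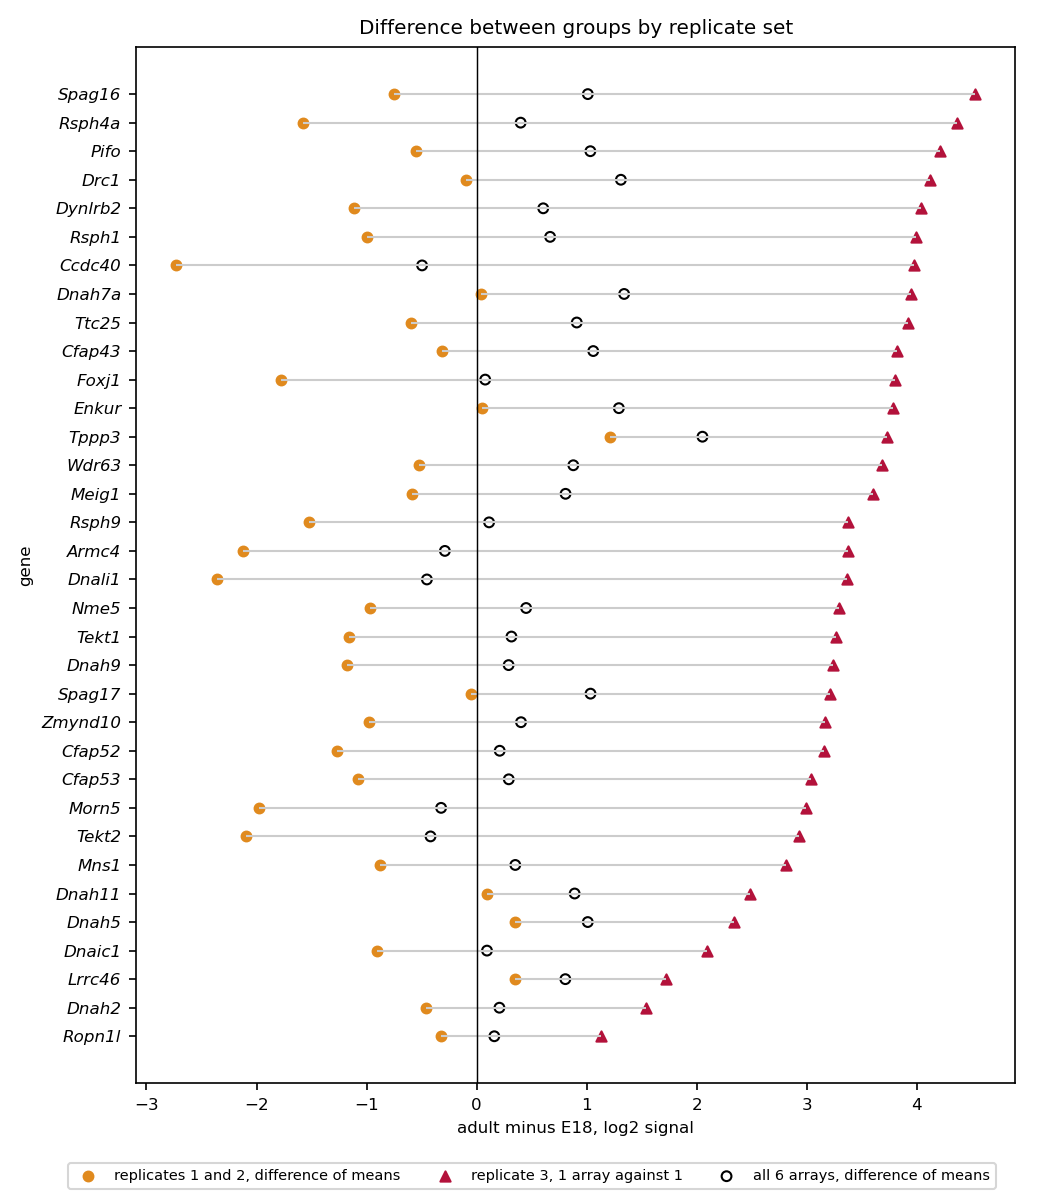
Adult minus E18 difference in log2 signal (x axis) for the 34 motile cilium genes tested (y axis), computed in replicates 1 and 2 (filled circles), in replicate 3 alone (triangles) and over all 6 arrays (open circles). The replicate 3 differences lie between 1.13 and 4.53, and those of replicates 1 and 2 between -2.73 and 1.21.

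Foxj1, the master transcription factor of motile ciliogenesis, followed the common pattern. It stood at 9.11, 9.06 and 7.86 in E18 replicates 1, 2 and 3 and at 7.72, 6.88 and 11.66 in adult replicates 1, 2 and 3. Adult replicates 1 and 2 lay below the lowest E18 array and adult replicate 3 above the highest. The group means were 8.68 ± 0.71 and 8.76 ± 2.55 (SD, n = 3), which differed by 0.08 (SE 1.15, adjusted p = 0.973). In replicates 1 and 2 the difference was -1.78 (adjusted p = 0.029), and in replicate 3 it was 3.80. Adult replicate 3 was 20.5-fold above the mean of adult replicates 1 and 2.

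The outer dynein arms carry the motors that drive the beat, and of their parts Dnah9, a heavy chain, is given in full. Its signal was 7.95, 7.74 and 7.38 in the E18 arrays and 6.36, 6.97 and 10.62 in adult replicates 1, 2 and 3. As for Foxj1, adult replicates 1 and 2 lay below the lowest E18 value and adult replicate 3 above the highest. The difference between the groups was 0.29 (SE 1.02, adjusted p = 0.898), from 7.69 ± 0.29 to 7.98 ± 2.31. The heavy chains Dnah5 and Dnah11 and the intermediate chain Dnaic1 were less spread, with adult replicate 3 above the mean of adult replicates 1 and 2 by 3.04, 1.97 and 2.57. For Dnah5 and Dnah11, adult replicates 1 and 2 lay within or above the E18 range.

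Armc4 and Ttc25 belong to the complex that docks outer arms onto the doublet. Armc4 stood at 8.19, 8.18 and 7.02 in E18 replicates 1, 2 and 3, at 5.91 and 6.22 in adult replicates 1 and 2, and at 10.40 in adult replicate 3. No adult value fell inside the E18 range. The group difference was -0.29 (SE 1.13, adjusted p = 0.908), and within replicates 1 and 2 it was -2.12 (adjusted p = 0.0129), which was the lowest p among the members in that fit. Ttc25 was near the floor in adult replicates 1 and 2, at 5.74 and 5.48, and reached 9.95 in adult replicate 3.

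Inner dynein arms shape the bend of the cilium, and their genes differed in how far they spread. The heavy chain gene Dnah2 had signals of 7.71, 7.89 and 8.31 in the E18 arrays, 7.53 and 7.15 in adult replicates 1 and 2, and 9.84 in adult replicate 3 (difference 0.21, SE 0.70, adjusted p = 0.892). The light intermediate chain gene Dnali1 ranged more widely, from 3.62 in adult replicate 1 and 6.99 in adult replicate 2 to 11.09 in adult replicate 3, with E18 values of 7.52 to 7.81. The value of 3.62 is under the floor of 5.80 on that array. A second, dimmer Dnali1 probe set did not repeat it, at 7.16, 4.50 and 9.27 in adult replicates 1, 2 and 3. For Dnah7a, a heavy chain gene with close relatives whose transcripts its probe set may not separate, the 5 other arrays lay between 4.91 and 5.90 and adult replicate 3 at 8.85. The intermediate chain gene Wdr63 stood at 5.23 in adult replicate 1 and 10.26 in adult replicate 3.

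Zmynd10 acts in the cytoplasm, where dynein arms are assembled before transport. Its signals were 7.89, 7.45 and 7.21 in the E18 arrays and 6.36, 7.03 and 10.37 in adult replicates 1, 2 and 3 (difference 0.40, SE 0.97, adjusted p = 0.845). Dynlrb2, a roadblock light chain of dynein, stood at 10.34, 10.48 and 9.76 in the E18 arrays and at 8.76, 9.83 and 13.80 in the adult arrays. Adult replicate 2 fell inside its E18 range, adult replicate 1 below and adult replicate 3 above it, and the group difference was 0.60 (SE 1.15, adjusted p = 0.799). Its relative Dynlrb1, which is found in cells of many kinds, had adult values of 10.52, 10.99 and 11.11, a difference of only 0.35 between adult replicate 3 and the mean of the other adult arrays, where that of Dynlrb2 was 4.50.

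The ruler protein Ccdc40 sets the spacing of arms and spokes along the doublet, and Drc1 anchors the nexin-dynein regulatory complex that links neighbouring doublets. Drc1 stood at 6.87, 7.39 and 7.25 in the E18 arrays and at 6.75, 7.33 and 11.37 in the adult arrays (difference 1.31, SE 1.11, adjusted p = 0.545). Adult replicates 1 and 2 were thus about level with E18, and adult replicate 3 exceeded the E18 mean by 4.20, the highest such value among the members. Ccdc40 was under the floor in both adult replicates 1 and 2, at 2.12 and 5.35, and reached 10.21 in adult replicate 3, so that adult replicate 3 was at least 24.3-fold higher. Its E18 values were 6.60, 6.34 and 6.23.

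Radial spokes pass signals from the central pair to the dynein arms, and 4 of their genes were measured. Rsph1, of the spoke head, stood at 9.16, 8.69 and 8.33 in the E18 arrays and at 7.56, 8.29 and 12.32 in adult replicates 1, 2 and 3 (8.72 ± 0.42 against 9.39 ± 2.57, difference 0.67, SE 1.12, adjusted p = 0.774). Rsph4a, also of the spoke head, had E18 values of 7.92, 7.35 and 6.99, nearly equal values of 6.07 and 6.04 in adult replicates 1 and 2, and 11.35 in adult replicate 3. Its 39.3-fold span between adult replicate 3 and the mean of the other adult arrays was the largest among the members tested, counting values under the floor as the floor. Rsph9 spanned 10.8-fold. Ropn1l, a spoke protein that binds kinase anchors, spanned only 4.09-fold, from 5.65 and 6.52 in adult replicates 1 and 2.

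Spag16, Spag17 and Spag6 encode parts of the central apparatus. Spag17 stood at 6.81, 6.99 and 6.91 in the E18 arrays and at 7.57, 6.12 and 10.12 in the adult arrays, so that adult replicates 1 and 2 lay on either side of E18 (difference 1.03, SE 0.91, adjusted p = 0.564). Spag16 reached 10.29 in adult replicate 3, against 5.57 and 6.02 in adult replicates 1 and 2 and 5.76 to 6.62 in the E18 arrays. Spag6 was under the floor throughout, between 0.48 and 5.32. Spag6l, its close relative on the same array, singled out once its values had been seen, had the common pattern, at 6.40, 5.70 and 4.62 in the E18 arrays and 3.84, 5.81 and 10.16 in the adult arrays (difference 1.03, SE 1.47, adjusted p = 0.729).

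Proteins that line or brace the doublet microtubules varied little in this span. Their 8 genes are the tektins Tekt1 and Tekt2, the inner proteins Enkur, Mns1, Cfap52 and Cfap53, the axonemal protein Cfap43, and Pifo. Adult replicate 3 exceeded the mean of adult replicates 1 and 2 by 3.65 to 4.69, with a class median of 3.94. Cfap52 stood at 8.97, 8.81 and 8.39 in the E18 arrays and at 7.31, 7.94 and 11.55 in the adult arrays (difference 0.21, SE 1.01, adjusted p = 0.926). Both lower adult values lay below all E18 values, and the difference within replicates 1 and 2 was -1.26 (adjusted p = 0.0487). Tekt2 had 8.29, 8.19 and 7.18 in the E18 arrays and 5.55, 6.74 and 10.11 in the adult arrays, with a difference within replicates 1 and 2 of -2.09 (adjusted p = 0.038). Enkur differed from these in that adult replicates 1 and 2, at 7.18 and 7.65, were level with the E18 values of 7.57, 7.17 and 7.43. Pifo reached 12.02 in adult replicate 3, against 7.16 and 8.05 in the other adult arrays and 7.82 to 8.22 in the E18 arrays.

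Of the remaining genes, Tppp3, which promotes tubulin polymerization, departed from the pattern in adult replicate 2. It stood at 10.13, 10.05 and 9.97 in the E18 arrays and at 10.23, 12.38 and 13.70 in adult replicates 1, 2 and 3. It was the only member tested whose adult values lay above all E18 values on all 3 arrays, a separation that 10.1% of all genes showed. The difference was 2.05 (10.05 ± 0.08 against 12.10 ± 1.75, SE 0.78, adjusted p = 0.179). Meig1 and Nme5 spanned 11.4-fold and 15.3-fold between adult replicate 3 and the other adult arrays, and Morn5 9.90-fold with a value of 3.63 in adult replicate 1 set to the floor. Lrrc46 had the smallest span, 2.06-fold, from 6.91 and 6.39 to 7.69.

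Over the 34 members, adult replicate 3 exceeded the mean of adult replicates 1 and 2 by a median of 3.94, from 1.04 for Lrrc46 to 6.47 for Ccdc40. Counting values under the floor as the floor, the median was 3.82, or 14.1-fold. Over all genes tested the median was 0.24, or 0.26 with values under the floor counted as the floor. The excess was above 0 for each of the 34 under all scalings run, with a median of 3.74 under quantile normalization and of 3.44 under median centring. Against the E18 mean, adult replicate 3 was higher by a median of 3.07, from 1.5 to 4.20, and the median over all genes was -0.01.

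The lower values in adult replicates 1 and 2 were smaller and less uniform. Their mean lay below the E18 mean for 29 of the 34 members, against 61.6% of all genes. Under quantile normalization and median centring it lay below for 26 of the 34 each, against 7068 and 6457 of all 13335 genes. In the deposited values the median difference was -0.78, against -0.28 over all genes. For 17 of the 34 members both values lay below all E18 arrays, which held for 35.7% of all genes. For 1 of them, Tppp3, both lay above all E18 arrays (18.1% of all genes). Adult replicate 1 was below adult replicate 2 for 23 of the 34 members, against 49.98% of all genes. Within the E18 group, replicate 3 was the lowest for 21 of the 34, against 49.4% of all genes. The part of the spike-in signals, high in replicate 3 of both groups, in these values was not tested.

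The 9 members with more than 1 probe set had 12 others, most of them dim. The highest array was adult replicate 3 for 10 of the 12, of which 4 reached the floor on adult replicate 3 alone and 3 on no array. The second Ropn1l probe set, the only 1 of the 12 to reach the floor on 5 arrays, stood at 6.23, 6.66 and 5.52 in the E18 arrays and at 6.37, 6.36 and 7.78 in the adult arrays. Adult replicate 3 was not the highest for the second Dnah9 probe set, at 1.36 there and at most 5.12 elsewhere, nor for 1 of those for Spag16, and both were under the floor on all 6 arrays.

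A wider list of other axonemal and motile cilium genes, compiled from general knowledge, was also high in adult replicate 3. Of 66 genes tested, 0 were higher, 0 lower and 66 did not pass, with a median difference of 0.22. Without adult replicate 3, 12 of the 66 were called lower and 0 higher, against 15.5% and 5.26% of all genes. Adult replicate 3 was the highest array for 61 of the 66, against 24.5% of all genes, and exceeded adult replicates 1 and 2 by a median of 3.58. The exceptions were Dnah8, Cfap57, Cfap61, Dnaaf2 and Poc1a, chosen after their values were seen. Ccdc151, Lrrc6, Cfap161, Cfap300, Efhc2, Spef2, Spata18 and Vwa3a reached the floor on 3 arrays, with adult replicate 3 among them. They were tested only because that array counted, and are kept in these counts. The list's Tubb4b, a tubulin of cilia and of many other cells, stood at 12.43, 12.29 and 12.04 in the E18 arrays and 10.60, 12.07 and 13.55 in the adult arrays, and Cfap20 at 8.77, 10.18 and 11.58 in the adult arrays. Fam183b, Tmem212, Cdhr3 and Ccdc153, listed as markers of ciliated cells, reached 13.13, 13.26, 10.18 and 12.81 in adult replicate 3.

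Intraflagellar transport carries building blocks along motile and primary cilia alike, and its genes had a smaller span. Of 31 tested, 0 passed in either direction, with a median difference of -0.24. Without adult replicate 3, 11 of the 31 were called lower and 0 higher, where 15.5% of all genes were called lower. Adult replicate 3 was the highest array for 30 of the 31, Ttc21b excepted, where 24.5% of all genes had it highest. It exceeded adult replicates 1 and 2 by a median of 2.61, against 3.94 for the motile cilium genes. By the naming rule, Hspb11 is given at 10.28, 10.55 and 11.78 in adult replicates 1, 2 and 3 and 10.33 to 10.80 in the E18 arrays.

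Genes that start multiciliation and amplify centrioles were more mixed. Of 16 tested, 2 were lower in the adult arrays and 0 higher, 14 did not pass the test, and the median was -0.39 (4.57% of all genes were called lower). The 2 were Stil (-2.71, SE 0.43, adjusted p = 0.0161) and Plk4 (-1.89, SE 0.35, adjusted p = 0.0257), which build centrioles in dividing cells as well. Without adult replicate 3, 4 of the 16 were lower, where 15.5% of all genes were called lower. The highest array was adult replicate 3 for 8 of the 16, against 24.5% of all genes, and exceeded adult replicates 1 and 2 by a median of 0.89. Among genes chosen after their values were seen, Trp73, a transcription factor upstream of Foxj1, stood at 5.98, 5.76 and 9.09 in the adult arrays, and Deup1, which builds centrioles in multiciliated cells, at 5.94, 5.68 and 9.01. The RFX factors Rfx2 and Rfx3 stood at 7.99 and 9.40 in adult replicate 3, above the other adult arrays by 2.56 and 1.34. Ccno, a cyclin-like gene needed for centriole amplification, did not have the pattern, at 7.83, 8.75 and 8.14.

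**Figure D3:**
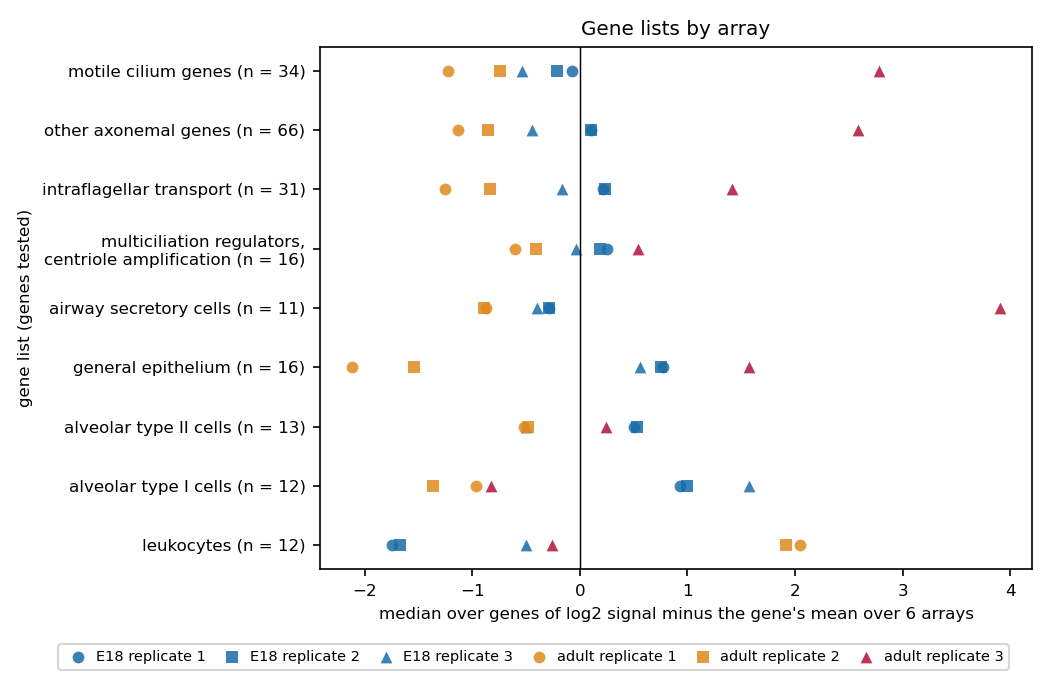
Median over the genes of a list of log2 signal minus each gene's mean over the 6 arrays (x axis), for 9 gene lists (y axis, with the number of genes tested) and 1 point per array. In adult replicate 3 the medians were 2.78 for the motile cilium genes, 3.90 for airway secretory cell genes and -0.26 for leukocyte genes.

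Most of the airway secretory and general epithelial genes tested, but not most of the basal cell genes, were also highest in adult replicate 3. Of 11 airway secretory cell genes tested, 10 had their highest value there, against 24.5% of all genes. In that array they exceeded adult replicates 1 and 2 by a median of 4.91. Bpifb1, Lypd2 and Chad reached the floor on 3 arrays, with adult replicate 3 among them, so they were tested only because that array counted. They are kept in these counts. Over all arrays 0 of the 11 passed the test, where 5.98% of all genes did. Without adult replicate 3, 2 of the 11 were lower, a share near the 15.5% of all genes called lower. The linear signals of the 16 such genes on the array were summed and put on the log2 scale, so the brightest genes weigh most. The sum was 14.73 to 14.92 in the E18 arrays, 14.34 and 14.08 in adult replicates 1 and 2, and 16.92 in adult replicate 3. Clca3b alone among them reached the floor on 0 arrays. The club cell secretoglobin Scgb1a1 stood at 13.74, 13.54 and 15.03 in the adult arrays and 12.09 to 13.19 in the E18 arrays, and Scgb3a2 at 11.90, 9.44 and 14.61 in the adult arrays. Of 16 general epithelial genes tested, 0 passed over all arrays. Adult replicate 3 held the highest value for 10 of them, against 24.5% of all genes. Without adult replicate 3, 14 were lower, where 15.5% of all genes were called lower. Among the 14 were Muc1 and Epcam, which are named in the sorts. The summed linear signal of the 17 such genes on the array was 15.37 to 15.52 in the E18 arrays on the log2 scale. It was 13.27, 13.09 and 16.33 in the adult arrays. The basal cell marker Krt5 was at 6.81, 6.50 and 7.17 in the adult arrays. Of 5 basal cell genes tested, 2 were highest in adult replicate 3, against 24.5% of all genes. Of those 5, Krt15 and Pdpn were lower in the adult group and 0 higher, where 4.57% of all genes were called lower and 1.41% higher. Pdpn is named in the E18 sort and is also on the type I list, so its difference does not describe basal cells.

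Alveolar type II genes differed less between the adult arrays. Adult replicate 3 exceeded adult replicates 1 and 2 by a median of 0.78 over 13 type II genes and by 0.36 over 12 type I genes. Ager, a type I marker, stood at 13.48, 12.06 and 12.70 in the adult arrays. Over all arrays, 1 of the 13 and 7 of the 12 were lower in the adult group, where 4.57% of all genes were called lower. Leukocyte genes ran the other way, with a median of -1.94 over 12 genes. Their summed linear signal, on the log2 scale, was 17.29, 16.58 and 15.51 in adult replicates 1, 2 and 3 and 15.32 to 15.67 in the E18 arrays. Adult replicates 1 and 2 exceeded the E18 mean by a median of 4.23. Over all arrays 2 of the 12 were higher, where 1.41% of all genes were called higher. Without adult replicate 3, 8 were higher, against 5.26% of all genes. Ptprc, the pan-leukocyte marker, stood at 15.16, 14.32 and 13.81 in those adult arrays. The part of these other cell markers in the values of the ciliary genes was not tested. In such bulk samples, a larger share of cells of a type and more of its RNA per cell cannot be told apart.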

How the data were processed

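The authors deposited 1 linear signal intensity for each probe set and array. The submitters' processing notes name MAS5 and Affymetrix Expression Console, whose versions are not given in the sources used here. The trimmed mean was about 500 on each deposited array. Values were log2 transformed with no pseudocount. Gene names came from the array's annotation table, and 64 control probe sets were left out. Genes at or above the 40th percentile of their array on at least 3 of 6 arrays, 13335 of 18193, were tested with limma 3.58.1 in R 4.3.3 (intensity trend, two-sided, Benjamini-Hochberg adjustment over all genes tested, threshold 0.05). All 6 samples were grouped by their labels, and arrays give no counting depth, so their number limits the precision. The members and lists were chosen with earlier results of these data known. All members are named. Full statistics are given for Foxj1 and for the gene with the highest mean signal in each role class. From other ciliary lists up to 4 genes that passed are named, or the 2 with the highest mean, and defining markers whatever their value. The fit was tested on simulated data. Alternatives covered scaling, filters, probe set choice, blocks by replicate number and left-out arrays. Promoter windows were RefSeq's for GRCm38.p6.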

Additional observations from a re-analysis of the deposited data

How the results depend on the processing

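None of the motile cilium genes passed under either other scaling, either other filter, or with low values raised to the floor. The fit kept 17 members with the filter at the 60th percentile and 30 with a gene's probe sets averaged. None passed with a gene's probe sets averaged, without the intensity trend, with the replicate block, or with E18 replicates 1 and 2 averaged. Nor did any pass with replicate 3 set against replicates 1 and 2 as a block. That block was chosen from the spike-in signals, and the labels name no batch. The members' median stayed above 0 in these fits, between 0.40 and 0.75. In replicates 1 and 2 alone, 6 members passed, and Foxj1 (-1.78), Rsph4a (-1.58), Rsph9 (-1.52) and Cfap52 (-1.26) were then lower, against small differences above 0 over all arrays; the cause was not tested. In replicate 3 alone the median was 3.37. Leaving out single arrays gave 0 to 1 calls among the members. Counts over all genes were 492 with the replicate block, 2996 in replicates 1 and 2 alone, 63 with E18 replicates 1 and 2 averaged, and 66 to 2770 with single arrays left out. Deviations of same-numbered arrays from their group means correlated at 0.036, -0.14 and -0.058 in replicates 1, 2 and 3. With 3 arrays per group, these values cannot show whether the replicate numbers pair the arrays. Replicate 3 of both groups had high spike-in signals. No count was possible in replicate 3 alone.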
